A study of Mus musculus with 12 samples.

Results

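The comparison described here asks what a guide vector changed in mouse hearts that already made a CRISPR activator. Cardiac ventricles of 3 transgenic samples injected with the vector (TG_AAV) were set against those of 3 transgenic samples injected with saline (TG_saline), so that 6 of the 12 libraries of the series were used. All 6 came from the C57BL/6 strain at 8 weeks of age and carried the same transgene, Myh6-dCas9VPR. It makes a nuclease-dead Cas9 joined to the VPR activation domains from the promoter of Myh6, which drives expression in cardiac muscle cells, so that other cells of the ventricle are not expected to hold the activator. The vector is labelled AAV9 TRISPR Mef2d and was taken to carry guide RNAs against Mef2d. The labels used here do not give its dose, route, time of injection or guide sequences. There was no transgenic group with a vector that lacked the Mef2d guides, so guides and vector cannot be told apart within these 6 libraries. Vector and saline in wild-type hearts (WT_AAV and WT_saline, 3 libraries each) served for a test of the difference. Genes were kept by their mean over the 6 libraries, 10 normalized counts or more, which left 12991 of the 24390 gene symbols. A normalized count is the number of reads of a gene divided by a size factor for its library.

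A nuclease-dead Cas9 binds DNA where a guide RNA matches next to a short motif, NGG for the enzyme most often used, without cutting. Activation domains such as VPR then recruit the transcription machinery, which raises the gene when the site lies near its start. Mef2d encodes a MADS-box transcription factor of the MEF2 family, which binds an AT-rich element in the control regions of many muscle genes. In the mouse heart MEF2 factors are known for roles in muscle gene expression, in metabolism and in the response to stress, and class IIa histone deacetylases hold them in check.

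The sequence shown here is the region before the start of Mef2d, because sites near a start are where such an activator can raise a gene. It covers the 250 bases before the RefSeq start, chr3:88142122-88142371 on the plus strand of GRCm38.p6, a later build than the authors' mm9. Capitals mark runs of G or of C of 2 or more letters, in which every GG after another base is an NGG on the printed strand and every CC before another base is an NGG on the other strand.
Mef2d: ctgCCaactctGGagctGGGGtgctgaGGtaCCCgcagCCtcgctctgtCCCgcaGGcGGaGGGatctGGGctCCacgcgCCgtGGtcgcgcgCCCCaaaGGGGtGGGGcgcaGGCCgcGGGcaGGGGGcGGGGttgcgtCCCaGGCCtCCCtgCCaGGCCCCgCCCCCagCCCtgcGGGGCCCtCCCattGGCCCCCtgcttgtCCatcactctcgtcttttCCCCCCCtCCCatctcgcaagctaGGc
The stretch held 35 NGG motifs on the printed strand and 44 on the other, and 73.2% of its bases were G or C. Which of these the guides used is not given in the sources used here.

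The 6 libraries held 10363475 to 14911986 reads on genes, of which the sarcomere gene Ttn took 9.95% to 10.5%. Replicates were not copies of each other, since pairs within a group gave chi-square values of 4.96 to 9.51 per degree of freedom. The first principal component held 46.4% of the variance and separated the groups. The next held 22.1% and set TG_saline 1 and TG_AAV 3 apart from the other 4, and these were the libraries with high Xist, at 8660 and 7415 normalized counts. The other 4 had Ddx3y between 1152 and 1885, so each group held at least 2 animals of unlike sex. The atrial transcript Myl7 was also uneven, at 728, 4.42 and 258 in TG_saline and 1505, 6.97 and 19.1 in TG_AAV, and so was the fast-fibre myosin Myh2, at 2.90, 1072 and 1.81 against 944, 996 and 0.796. Of the 7 tested atrial markers none passed the test between the groups, and their summed level ran from 3214 to 5640 in TG_saline and from 2720 to 7585 in TG_AAV. The part of this unevenness in the results below was not tested, beyond fits that leave libraries out.

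Mef2d was raised by the vector in hearts with the activator. Its normalized counts were 833, 844 and 839 in TG_saline and 1989, 2231 and 1897 in TG_AAV. The groups did not overlap, and the lowest vector library lay far above the highest saline library. The ratio of the means was 2.43, from 839 ± 5.45 to 2039 ± 173 (SD, n = 3 in each), and the log2 change was 1.28 with an SE of 0.07 (limma, adjusted p = 1.26e-05). A two-sided exact permutation of the 3 against 3 values gave p = 0.1, the smallest it can give. Among the relatives of Mef2d, Mef2a fell by 0.30 on the log2 scale (adjusted p = 0.0141), from between 3372 and 3789 to between 2834 and 3028, a call that was lost in the fit of all 12 libraries (adjusted p = 0.176). Mef2c had values of 1730, 1660 and 1566 in TG_saline and 1661, 1527 and 1551 in TG_AAV, which overlap. Hdac4, Hdac5, Hdac7 and Hdac9, the class IIa histone deacetylases, did not pass the test, with log2 differences from -0.08 to 0.35. Mef2b had too few reads to be tested.

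Across all genes the vector raised 1004 genes, 7.73% of those tested, and lowered 726, or 5.59%, at an adjusted p under 0.05. More than 2-fold changes numbered 193 upward and 81 downward, and more than 4-fold changes 48 and 11. The upward counts include genes with a TG_saline mean under 10, which passed the filter through TG_AAV alone. Those of them that were called had a median log2 change of 2.76, so the balance of large changes is not read as a result. The values of the groups did not overlap for 2399 genes that were higher (18.5%) and 2002 that were lower (15.4%). Of the 1730 genes called, 1724 had groups that did not overlap. The other 6, named after their values were seen, were the matricellular gene Cyr61, the Wnt antagonist Frzb, the natriuretic peptide gene Nppb, the mitochondrial ribosome gene Mrps27, the clock output gene Hlf and the growth factor gene Fgf16. Without TG_AAV 1, 587 genes rose and 443 fell. Without TG_AAV 2 the counts were 598 and 428, and without TG_AAV 3 they were 700 and 448. In total 789 genes were called in each of the 6 fits that leave out a library. Scaling to total reads in place of the authors' size factors gave 1365 higher and 615 lower calls, so that 68.9% of calls were higher and not 58.0%, with a median over all genes of 0.04 on the log2 scale against 0.00.

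**Figure D1:**
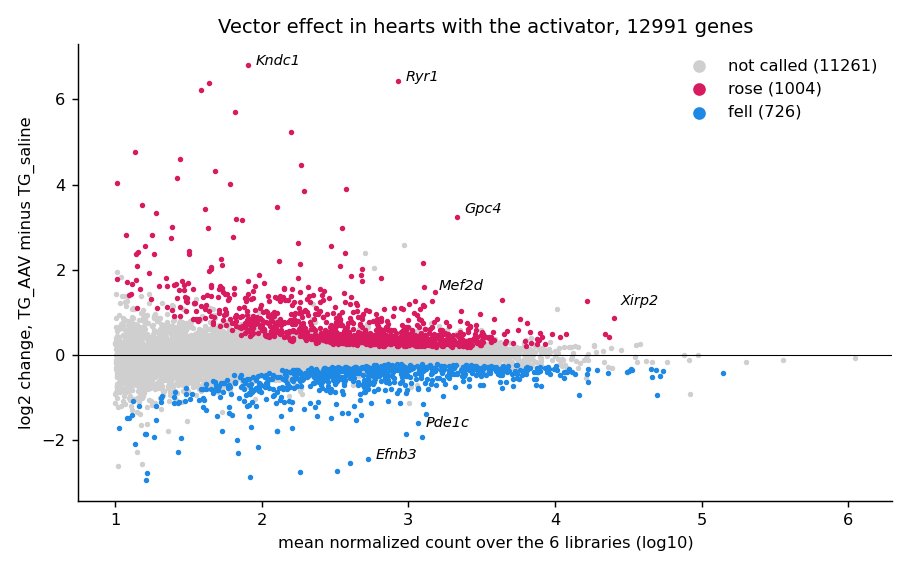
Log2 change of TG_AAV over TG_saline (y axis) against the mean normalized count of the 6 libraries on a log10 axis (x axis), with 1 point for each of the 12991 genes tested and colours for the 1004 that rose and the 726 that fell. Changes of several log2 units are mostly upward and at low or middle levels, while changes of highly expressed genes are small in both directions. Genes with a TG_saline mean under 10 passed the filter through TG_AAV alone and are among these upward changes.

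Among called genes, those with few reads had the larger changes, as they need a larger change to pass the test. Of the 1860 genes with a mean of 1000 or more in TG_saline, 219 rose and 248 fell, with median log2 changes of 0.34 and -0.36. Of the 2151 genes between 10 and 50, 99 rose and 30 fell, with medians of 1.34 and -1.16. A further 105 genes had a TG_saline mean under 10 and passed the filter through TG_AAV alone, so no count among them is read as a result. Their 37 called genes all rose, as the filter makes likely.

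The 8 genes with the largest rise from a TG_saline mean under 10 were near silent in saline-injected hearts and present in all 3 vector-injected ones. They passed the filter through TG_AAV alone and were chosen for their rise, so their values are given as a description with no test. Kndc1, a Ras exchange factor of brain neurons, had normalized counts of 0, 0 and 1.81 in TG_saline and 123, 183 and 175 in TG_AAV. From 2 and 572 reads its ratio was 240, with a 95% exact (Clopper-Pearson) counting interval of 66.1 to 1986. Clstn3, a calsyntenin of synaptic adhesion, went from 2.90, 1.10 and 0.904 to 135, 113 and 143, a ratio of 80.2 from 5 and 478 reads (interval 34.1 to 248).

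Col22a1 encodes a collagen of tissue junctions such as that between muscle and tendon. It had 7.73, 4.42 and 10.8 in TG_saline and 314, 306 and 303 in TG_AAV, a ratio of 39.1 (interval 26.1 to 61.2). Its 3 vector libraries lay close together and far above the saline libraries.

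Atp1b4, an X-linked muscle protein related to the sodium pump beta subunits, had no read in TG_saline and 99.2, 110 and 51.7 normalized counts in TG_AAV. The ratio to a floor of 3 reads over the TG_saline group was 87.0, and by the lower limit of the same counting interval it was at least 70.3-fold higher. B3gat1, the glucuronyltransferase that makes the HNK-1 carbohydrate, also had no read in TG_saline and reached 47.4, 99.6 and 83.5, with a ratio to the floor of 75.5 and a lower limit of 61.0. Plekhg6, a guanine nucleotide exchange factor, had none in TG_saline against 19.0, 25.9 and 37.4, with a ratio to the floor of 27.7 and a lower limit of 22.1. These 3 were the called genes with no read at all in the TG_saline group.

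Syndig1, a synaptic regulator of glutamate receptors, went from 2.90, 0 and 1.81 to 60.5, 43.8 and 55.7, a ratio of 33.1 (interval 13.9 to 103). Ccno, a cyclin of multiciliated cells, went from 9.67, 1.10 and 2.71 to 91.9, 53.8 and 130, a ratio of 20.6 (interval 12.1 to 38.1). Intervals and floors cover counting error only. Fitted log2 changes of these genes depend on the pseudocount and are not quoted as folds.

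**Figure D2:**
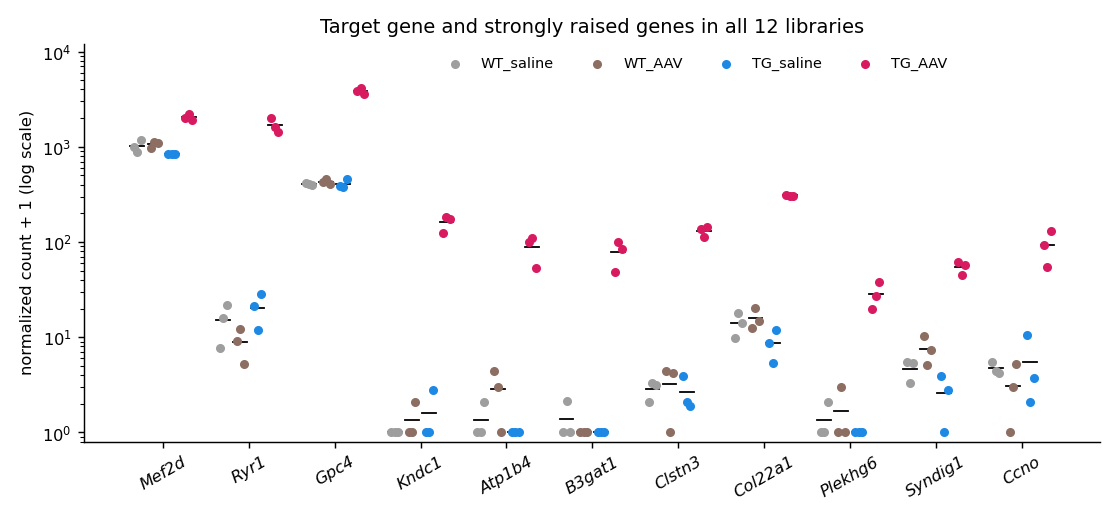
Normalized counts plus 1 on a log axis (y axis) of Mef2d and strongly raised genes (x axis), with 1 point for each of the 12 libraries, colours for the 4 groups and short lines at group means. The 3 TG_AAV points of each gene lie above the points of TG_saline, WT_saline and WT_AAV, which for Kndc1, Atp1b4, B3gat1 and Clstn3 lie near the bottom of the axis.

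Among genes with a TG_saline mean of 50 or more, the strongest rise was that of Gpc4, a glypican that carries heparan sulfate at the cell surface. It went from 389, 380 and 461 to 3863, 4185 and 3590, a log2 change of 3.24 with an SE of 0.09 (limma, adjusted p = 1.58e-07). The groups were far apart, and the lowest vector library lay well above the highest saline library. Scn4b, a beta subunit of voltage-gated sodium channels, rose from 540, 360 and 494 to 2178, 1695 and 2297, a log2 change of 2.15 with an SE of 0.16.

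Other genes that the naming rule picked at this level were Tmem56 at a log2 change of 2.56, Slc24a2, a potassium-dependent sodium-calcium exchanger, at 2.15, Cilp, a matrix protein of cartilage and scar, at 2.08, and Adamtsl2, a secreted protein that binds a latent TGF-beta binding protein, at 2.03. Cilp and Adamtsl2 were highest in TG_AAV 3, with 891 and 1155 against at most 457 and 599 in the other vector libraries. Casq1 belongs with the skeletal muscle genes below. With a robust variance estimate, Cilp and Adamtsl2 missed the threshold, with adjusted p of 0.0588 and 0.0592.

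Of the genes that fell, Efnb3, an ephrin ligand of Eph receptors, went from 1050, 772 and 859 to 155, 209 and 135, a log2 change of -2.43 with an SE of 0.16 (limma, adjusted p = 3.38e-05). Each vector library lay far below every saline library. Abca4, the retinoid transporter of photoreceptors, went from 179, 135 and 125 to 16.8, 17.9 and 23.1, a log2 change of -2.86.

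Lrrc4b, a synaptic adhesion protein, fell by 2.75, Cenpf, a centromere protein, by 2.54, Ciart, a repressor in the circadian clock, by 2.30, Plekhh1 by 2.15 and Bdh1, which interconverts the ketone bodies, by 1.86 on the log2 scale. Aqp4, a water channel, had 108, 86.2 and 117 in TG_saline and 44.5, 39.9 and 8.75 in TG_AAV, and its call was lost without any 1 saline library (adjusted p up to 0.0936). Lars2, the mitochondrial leucyl tRNA synthetase, had 2524, 3122 and 498 in TG_saline and 454, 394 and 395 in TG_AAV. TG_saline 3 thus lay near the vector libraries, and the call at adjusted p = 0.0474 was lost in 5 of the 6 fits that leave out a library, up to adjusted p = 0.124.

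Among highly expressed genes Ankrd1, a stretch-responsive repeat protein of the sarcomere and nucleus, rose from 8662, 12240 and 8668 to 20882, 25365 and 23883, a log2 change of 1.26 with an SE of 0.14 (limma, adjusted p = 0.00059). Ankrd23, a related titin-associated protein, rose by 0.97 and Fbln2, a basement membrane protein, by 1.03. Pde1c, a calmodulin-dependent phosphodiesterase, fell by 1.58, from 1800, 1732 and 1660 to 645, 672 and 444. Kcnip2, the subunit that sets the transient outward potassium current, fell by 1.15, from 1664, 2012 and 1562 to 809, 716 and 823. Tfrc, the transferrin receptor, fell by 1.12, and in the fit of all 12 libraries the change was the same but did not pass (adjusted p = 0.141). Groups of each of these genes did not overlap.

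Genes were also grouped by role. Of 23 lists, those with more members up than down were led by skeletal muscle, stress and matrix genes, and those with more members down by respiratory chain, fatty acid and ion channel genes. Clstn3, Ccno, Col22a1 and Myoz1, which passed the filter through TG_AAV alone, are among the list members that rose. Counts of members are to be read against 7.73% of all tested genes rising and 5.59% falling, and list medians against a median of -0.00 over all genes. These shares depend on level. Of genes with a TG_saline mean of 1000 or more, 11.8% rose and 13.3% fell, against 4.60% and 1.39% between 10 and 50. For lists of highly expressed genes, such as respiratory chain and sarcomere genes, the shares at 1000 or more are the nearer ones.

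**Figure D3:**
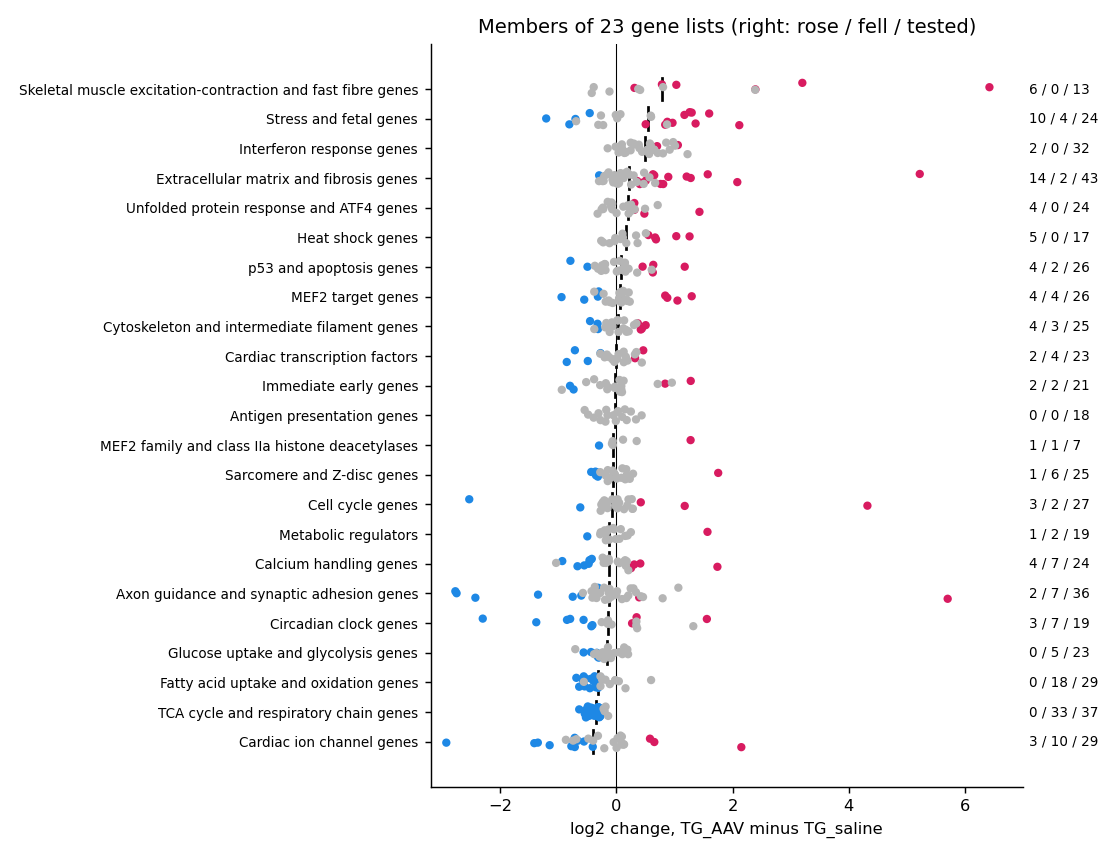
Log2 change of TG_AAV over TG_saline (x axis) for each tested member of 23 gene lists (y axis), with members that rose or fell coloured, black lines at list medians and numbers of members that rose, fell and were tested at the right. Members of the list of TCA cycle and respiratory chain genes that passed the test all lie to the left of 0, and those of the skeletal muscle list all lie to the right.

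Of 28 genes of skeletal muscle excitation-contraction coupling and fast fibres, 13 had enough reads to be tested, 6 rose and none fell, with a median of 0.78. Ryr1, which encodes the skeletal calcium release channel, had 20.3, 11.0 and 27.1 in TG_saline and 1995, 1593 and 1442 in TG_AAV, a ratio of 84.5 from 61 and 6146 reads (95% counting interval 65.7 to 111). The adjusted p was 2.21e-06, and no vector library came near a saline library. Sypl2, the mitsugumin 29 of the triad junction, rose from 11.6, 12.2 and 12.7 to 101, 124 and 138.

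Casq1, the calcium store protein of skeletal muscle, rose from 164, 95.0 and 100 to 576, 627 and 644. Smaller rises were those of Mybpc2, the fast myosin-binding protein C, at 1.03, Cacna1s, the skeletal calcium channel, at 0.78, and Jph1, a junction protein, at 0.31 on the log2 scale. Of the 10 markers of skeletal muscle fibres 4 were tested and 1 rose, Acta1, which the heart also expresses. Myh2 was at 2.90, 1072 and 1.81 in TG_saline, where Ryr1 was at 20.3, 11.0 and 27.1. In TG_AAV Myh2 was at 944, 996 and 0.796, where Ryr1 was at 1995, 1593 and 1442. The share of skeletal muscle fibres in these values was not tested.

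Of 24 tested stress and fetal genes, 10 rose and 4 fell, with a median of 0.55. Beside Ankrd1 and Ankrd23 these were the actin-binding repeat gene Xirp2, its relative Xirp1, the cytokine receptor Tnfrsf12a, the calcineurin regulator Rcan1, the nicotinamide riboside kinase Nmrk2, filamin C (Flnc), the skeletal actin Acta1 and Nppb. Xirp2 went from 16948, 19070 and 17064 to 33367, 30286 and 33762, a log2 change of 0.88 with an SE of 0.08. Nmrk2 went from 21.3, 11.0 and 28.9 to 81.7, 92.7 and 83.5. The vector libraries were the higher for both, and for Nmrk2 they spread little.

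Rcan1 went from 746, 758 and 764 to 1642, 2365 and 1272. Nppb, the B-type natriuretic peptide, had 309, 1286 and 511 in TG_saline and 2036, 2368 and 1172 in TG_AAV, so that TG_saline 2 lay above TG_AAV 3. The call for Acta1 was lost in the fit of all 12 libraries (adjusted p = 0.12) and without TG_AAV 3 (adjusted p = 0.0615). Nppa, the A-type peptide, did not pass, with values from 1575 to 1924 in TG_saline and 1835 to 3574 in TG_AAV. The members that fell were Fhl1, a LIM protein, at -0.81, the chaperone clusterin (Clu) at -0.71 and the metallothioneins Mt2 at -1.21 and Mt1 at -0.46.

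Of 26 tested genes known as MEF2 targets, 4 rose and 4 fell, with a median of 0.06. The risers were Xirp2, Xirp1, Acta1 and the actin-binding Abra at 1.05. The fallers were Ckm, the muscle creatine kinase, at -0.95, the calcium-binding Hrc at -0.56, the titin cap Tcap at -0.32 and the insulin-responsive glucose transporter Slc2a4 at -0.31. Ckm had 19220, 22032 and 16049 in TG_saline and 10317, 8824 and 10424 in TG_AAV, with no overlap. Without TG_AAV 1, 4 members rose and 2 fell, and with the highest-Myl7 library of each group left out, 1 rose and 2 fell. With scaling to total reads, and also with quantile normalization, 6 rose and 3 fell, so the even split depends on the scaling.

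The 250 bases before the starts of 2 of these risers are shown, picked because they hold letters that match an element of MEF2 or of its relative SRF. The window of Acta1 held no match to the MEF2 element. Sequences are from RefSeq on GRCm38.p6. Capitals mark a MEF2 element in Xirp2 (chr2:67445752-67446001, plus strand) and a CArG box and a TATAAA in Acta1 (chr8:123894776-123895025, minus strand).
Xirp2: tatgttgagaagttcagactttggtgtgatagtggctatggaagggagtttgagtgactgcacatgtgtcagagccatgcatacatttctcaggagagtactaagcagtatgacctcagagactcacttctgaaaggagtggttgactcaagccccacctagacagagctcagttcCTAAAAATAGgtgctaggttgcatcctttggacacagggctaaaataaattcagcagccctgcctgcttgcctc
Acta1: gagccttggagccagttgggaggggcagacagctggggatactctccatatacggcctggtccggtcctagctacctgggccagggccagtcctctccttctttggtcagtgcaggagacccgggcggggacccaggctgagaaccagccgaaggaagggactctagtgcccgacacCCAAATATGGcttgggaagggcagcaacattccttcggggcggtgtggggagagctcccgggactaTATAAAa
A promoter window, 250 bases before to 50 after the RefSeq start, was at hand for 9820 of the 12991 tested genes. Leaving out Mef2d itself, the MEF2 element was found on either strand in 2.44% of all windows, 2.48% of those of genes that rose and 3.24% of those of genes that fell. The CArG box was in 1.60%, 1.96% and 2.48%, and TATAAA in 8.84%, 8.75% and 10.1%. Among genes changed more than 2-fold, the MEF2 element was in 1 of 150 windows of risers and 3 of 60 of fallers. The CArG box was in 2 and 0 of these windows. No such match was tested, and a match is a run of letters and not a site. Of the 29 windows of genes that rose from a TG_saline mean under 10, none held a MEF2 element or a CArG box. A 12-base stretch next to an NGG that the Mef2d window also has was in 1.36% of all windows, 1.83% of those of genes that rose, 1.14% of those of genes that fell and none of the 29. At such low shares so few windows can easily hold no match, so the absences among the 29 are not read as a result. Because the guides are not known here, this is no search for their off-target sites.

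Of 43 tested genes of the extracellular matrix and fibrosis, 14 rose and 2 fell, with a median of 0.22. Beside Col22a1 and Cilp the risers included Col8a1, a short-chain collagen, from 547, 634 and 636 to 1362, 1217 and 1651. Ltbp2, a latent TGF-beta binding protein, rose from 48.3, 77.3 and 91.3 to 222, 228 and 182. The ligands Tgfb2 and Tgfb3 rose by 0.76 and 0.63, the proteoglycans Bgn and Vcan by 0.81 and 0.65, and the secreted Ctgf by 1.28 on the log2 scale. Vector libraries lay above saline libraries for all of these.

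The main fibrillar collagen gene Col1a1 did not pass, with 1141, 655 and 858 against 872, 836 and 1192, and neither did Postn, at 619, 456 and 591 against 997, 538 and 827. The basement membrane gene Col4a2 and the fibronectin gene Fn1 fell, by 0.24 and 0.30, calls that were lost in fits leaving out a library (adjusted p up to 0.149 and 0.13). Of 11 fibroblast markers 6 rose and none fell, among them Dcn, Mfap5, Gsn and Pdgfra (3 of 11 in the fit of all 12 libraries), and their summed level ran from 29768 to 33789 in TG_saline and from 42520 to 44730 in TG_AAV. The share of this in the matrix counts was not tested, and in ventricle tissue more cells of a type and more RNA per cell cannot be told apart. No marker of fibroblasts was at 0.

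Of 17 heat shock genes 5 rose and none fell, led by Bag3, a co-chaperone of the Z-disc, from 1966, 2116 and 2015 to 3191, 3351 and 3132. Hspa1a and Hspa1b were among the 5, but they are near-identical copies whose reads may be split by the counting. Without TG_AAV 1 the count of risers was 1, and without TG_AAV 2 it was 2. Of 24 genes of the unfolded protein response and ATF4, 4 rose and none fell, namely Dnajc3, Mthfd2, Pdia6 and Atf6. Either vector library 1 or 2 left out gave 2. Of 26 genes of p53 and apoptosis 4 rose, including the cell cycle inhibitor Cdkn1a from 90.8, 51.9 and 43.4 to 148, 127 and 129, and 2 fell.

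The count of interferon response genes depended on TG_saline 1. Of 32 genes 2 rose with all 6 libraries, Ifit1 and Ifit2, and none fell, although the median was 0.49. In the median over members TG_saline 1 stood at 0.26 above the mean of the 6 libraries, and TG_saline 2 and TG_saline 3 at -0.36 and -0.57, while the vector libraries were at 0.15 to 0.42. Without TG_saline 1, 17 of the 32 passed the test as higher in TG_AAV. With 2 libraries in each group, leaving out either those with high Xist or those with the highest Myl7, 12 did. Ifit2 had 450, 327 and 306 in TG_saline and 579, 548 and 611 in TG_AAV. None of 18 antigen presentation genes passed with all 6 libraries, and 4 rose without TG_saline 1. Of 13 tested macrophage and monocyte markers 1 rose, Lyve1, and 4 did without TG_saline 1.

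**Figure D4:**
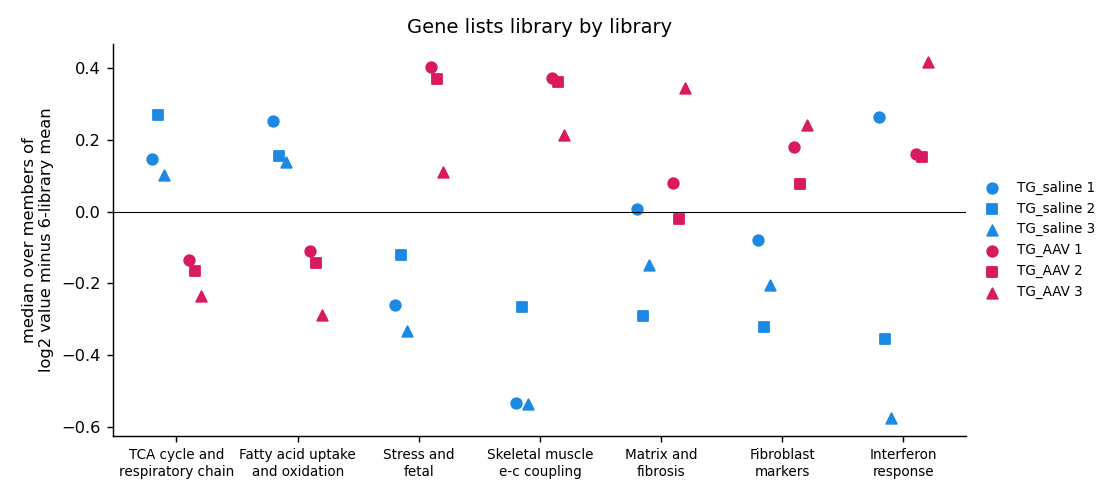
Median over the members of a gene list of the log2 value minus the mean of the 6 libraries (y axis), for selected lists (x axis), with 1 point for each of the 3 TG_saline and 3 TG_AAV libraries. For the TCA cycle and respiratory chain list the saline libraries lie at 0.10 to 0.27 and the vector libraries at -0.23 to -0.14, while for the interferon list TG_saline 1 lies among the vector libraries.

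Most members of the list of TCA cycle and respiratory enzymes were lower in all 3 vector libraries, by small amounts. Of 37 tested members, 33 fell and none rose, with a median of -0.35. For 36 the vector libraries were lower with no overlap of the groups, as they were for 15.4% of all tested genes. Cs, the citrate synthase, went from 13834, 14304 and 13115 to 9784, 9523 and 8948, a log2 change of -0.55 with an SE of 0.07 (limma, adjusted p = 0.00115). Cox7a1, the muscle form of a cytochrome oxidase subunit, had 5365, 5440 and 4669 against 3418, 3295 and 3184, a log2 change of -0.64, the furthest of the list.

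The 4 that did not pass were Ndufs1, Sdhc, Idh3a and Fh1, with log2 values from -0.22 to -0.14. Changes of this size need a small spread to pass. In the fit of all 12 libraries 13 of the 37 passed, with the highest-Myl7 libraries left out 12, and with the high-Xist libraries left out 17.

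Of 29 genes of fatty acid uptake and oxidation 18 fell and none rose, with a median of -0.32. Etfb, a subunit of the electron transfer flavoprotein, had 3847, 3792 and 3740 in TG_saline and 2310, 2408 and 2326 in TG_AAV, a log2 change of -0.69 with an SE of 0.05. Hadh, a dehydrogenase of beta-oxidation, fell by 0.64. The carnitine transferase Cpt1b and the uptake genes Cd36 and Fabp3 did not pass. In the fit of all 12 libraries 2 of the 29 passed, and without the high-Xist or the highest-Myl7 libraries 6 and 9.

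Of 23 tested genes of glucose uptake and glycolysis 5 fell and none rose. They were the pyruvate dehydrogenase kinase Pdk2, the lactate dehydrogenase Ldhb, the pyruvate dehydrogenase subunit Pdha1 and the transporters Slc2a1 and Slc2a4, with log2 changes between -0.57 and -0.31. Without TG_AAV 1 the count was 3 and without TG_AAV 3 it was 2. Among 19 metabolic regulators Sirt3 and Esrrg fell and Nr4a3 rose, but without TG_saline 2 the list had 3 risers and 1 faller.

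Of 29 tested cardiac ion channel genes 10 fell and 3 rose, with a median of -0.40. Abcc9, the sulfonylurea receptor of cardiac KATP channels, went from 10160, 10470 and 9288 to 5913, 6472 and 5778, a log2 change of -0.72 with an SE of 0.07. Gja1, the main gap junction gene of the ventricle, fell by 0.78 and the potassium channel genes Kcnk3 and Kcnh2 by 0.72 and 0.67. The neuronal sodium channel gene Scn10a had 25.1, 16.6 and 43.4 in TG_saline and 0, 5.98 and 5.57 in TG_AAV. The risers included Scn4b and the inward rectifier Kcnj12.

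Of 24 tested calcium handling genes 7 fell and 4 rose, but with scaling to total reads 7 fell and 7 rose. Pln, the phospholamban that restrains the calcium pump, had 68190, 68149 and 58224 in TG_saline and 35002, 34489 and 32150 in TG_AAV, a log2 change of -0.93 with an SE of 0.10 (limma, adjusted p = 0.000492). The release channel Ryr2 fell by 0.48, the exchanger Slc8a1 by 0.47, the channel Cacna1c by 0.45 and the pump Atp2a2 by 0.43. Saline libraries of all 5 lay above the vector libraries.

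The kinase genes of the calmodulin-dependent family moved in both directions. Camk2b had 235, 207 and 221 in TG_saline and 798, 689 and 734 in TG_AAV, a log2 change of 1.74 with an SE of 0.08. Camk2a fell by 0.67 and Camk2g rose by 0.25, while Camk2d did not pass. With the highest-Myl7 libraries left out, 3 genes of the calcium list fell and 1 rose. Without TG_AAV 1, 5 fell and 1 rose, and without TG_saline 1, TG_AAV 2 or TG_AAV 3, 6 fell and 2 rose.

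Of 25 sarcomere and Z-disc genes 6 fell, including the troponins Tnni3 and Tnnt2 and the light chain Myl3, by 0.32 to 0.44 on the log2 scale, and 1 rose, but with quantile normalization 2 fell and 4 rose, which turned the balance. With scaling to total reads 5 fell and 4 rose, and in the fit of all 12 libraries 1 fell and none rose. The count that fell was 2 without TG_saline 1 or without any 1 vector library, and 3 without TG_saline 2. The riser, Myoz1, passed the filter through TG_AAV alone. Of 8 ventricular muscle markers 3 fell, none in the fit of all 12 libraries or with quantile normalization, and their summed level ran from 601240 to 670496 in TG_saline and from 538828 to 586187 in TG_AAV. Whether this lower level enters the falls of respiratory chain, channel and calcium genes was not tested. Myh6, whose promoter drives the activator, did not pass, with values from 357604 to 388654 against 323460 to 362613.

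Of 19 circadian clock genes 7 fell and 3 rose. Dbp, an output factor of the clock, had 1999, 1804 and 1854 in TG_saline and 747, 561 and 900 in TG_AAV, a log2 change of -1.38. The receptors Nr1d1 and Nr1d2 and the period genes Per1 and Per3 fell by 0.43 to 0.85, while Nfil3, a repressor of the same elements that Dbp binds, went from 52.2, 145 and 63.3 to 271, 245 and 189. Without TG_AAV 1 or without TG_saline 3, 1 member of the list rose, and without the highest-Myl7 libraries 3 fell and none rose. The hour of collection is not in the labels used here, and its share was not tested. Among 23 cardiac transcription factors Gata4 and Nfatc2 rose and Hopx, Irx5, Hand2 and Zfpm2 fell, with log2 changes from -0.86 to 0.46. With scaling to total reads 4 of this list rose and 3 fell, in the fit of all 12 libraries none rose and 1 fell, and leaving out 1 library gave 0 to 3 risers and 2 to 5 fallers.

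Of 36 tested axon guidance and synaptic adhesion genes 7 fell and 2 rose. Beside Efnb3 and Lrrc4b, those that fell included the receptor Ephb1, the netrin gene Ntn1 and the cadherins Cdh20 and Cdh2, with log2 changes of -1.35, -0.61, -2.78 and -0.32, while Clstn3 and the plexin Plxnb1 rose. Among 25 cytoskeletal genes Flnc, the lamin gene Lmna, Mapt and Synm rose and Tuba4a, Nes and Actb fell, but none of the list fell in the fit of all 12 libraries or without TG_AAV 2. Among 27 tested cell cycle genes Ccno, Cdkn1a and Ccnd3 rose and Cenpf and Cenpa fell. Among 21 immediate early genes Ctgf and Cyr61 rose and Ier2 and Zfp36 fell.

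Other cell types showed little that passed. Of 12 endothelial markers Cdh5 and Esam fell, and none of 9 mural or 6 epicardial markers passed. Thrsp, a lipogenic gene of the adipocyte list, rose from 231, 189 and 163 to 509, 502 and 572, and Cidea of the same list fell. Of the markers of Schwann cells and neurons Uchl1 rose and Dbh, the noradrenaline-forming enzyme, fell. The markers of lymphocytes and neutrophils summed to at most 48.8 normalized counts in any of the 6 libraries, and no member was tested.

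Whether the vector acted differently with and without the activator was tested in a fit of all 12 libraries. Pairs of wild-type libraries within a group gave chi-square values of 8.38 to 25.5 per degree of freedom. WT_saline 3, WT_AAV 2 and WT_AAV 3 were set apart in earlier results of these data, but WT_AAV 1 also differs from the other vector libraries, with 396 normalized counts of the heat shock gene Hspa1a against 31.5 and 17.1. In wild-type hearts the vector changed no gene by limma at the same threshold (0.0% of those tested), where 514 had an unadjusted p under 0.05. edgeR called 0 and DESeq2 called 10 on the recovered reads. The spread of the vector effect over genes was 0.42 (SD on the log2 scale) in transgenic and 0.26 in wild-type hearts. The filter used the transgenic libraries only and let genes in through TG_AAV alone, which widens the transgenic spread. The contrast of the spreads is therefore not read as a result. Across genes the effects had a Pearson r of 0.12, given without a test because genes are not independent replicates.

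The effect of the vector was higher in transgenic than in wild-type hearts for 81 genes (0.624% of those tested) and lower for 31 (0.239%). The 81 include genes that passed the filter through TG_AAV alone, among them the 8 raised from near silence. Without WT_saline 3, WT_AAV 2 and WT_AAV 3, 144 were higher and 116 lower, but WT_AAV 1 is then the only vector library of the wild type and is assumed to vary like the other groups. Without WT_AAV 1, 64 were higher and 22 lower. The total of 112 was 190 without WT_saline 3 and 40 without TG_AAV 2. It also moved by more than 1.5 times without WT_saline 1, WT_saline 2, WT_AAV 2, TG_saline 1, TG_saline 2, TG_AAV 1 or TG_AAV 3, to between 42 and 71. For Mef2d the difference between the effects was 1.20 with an SE of 0.15 (limma, adjusted p = 0.0016), and its wild-type ratio was 1.05.

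Gpc4 had values from 398 to 454 in the 6 wild-type libraries, as in TG_saline, and its difference was 3.18 (SE 0.13). Pdzd4 had 40.6, 46.4 and 52.4 in TG_saline, 702, 687 and 708 in TG_AAV and 35.5 to 53.2 in wild-type libraries, a difference of 3.89 (SE 0.23). Lrrcc1, a centriole protein, had 208, 199 and 197, then 762, 742 and 729, and 184 to 230 in wild-type libraries, a difference of 1.85 (SE 0.13). In all 3 genes the TG_AAV libraries stood alone.

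Lix1l rose from 489, 518 and 508 to 1075, 1049 and 1119, with a difference of 1.30. On the lower side stood Efnb3, with a difference of -2.50 and wild-type values from 1033 to 1367. Mov10l1, an RNA helicase gene of germ cells that also has a heart transcript in the mouse, had a difference of -1.09. Crip2, a LIM protein of the heart, went from 6450, 6748 and 6089 to 3811, 3832 and 4034, with a difference of -0.73.

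The 8 genes raised from near silence are among the 81 but are not read as support, because they entered through TG_AAV. In the 6 wild-type libraries Col22a1 lay between 8.88 and 19.3, Kndc1 between 0 and 1.07 and Clstn3 between 0 and 3.45 normalized counts. Ryr1 had a difference of 7.15 and values from 4.29 to 20.6 in wild-type libraries. The difference did not pass for Scn4b, Casq1, Slc24a2, Cilp, Adamtsl2, Lrrc4b, Ciart, Plekhh1, Aqp4, Lars2 and Bdh1. Nor did it pass for Acta1, Ankrd1, Fbln2, Ankrd23, Dbp and Tfrc. The limma adjusted p of these genes ran from 0.0754 to 0.785, which does not show that the effects are alike. Casq1, for example, had a log2 difference of 1.16 between vector and saline in wild-type hearts and 2.39 in transgenic ones.

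**Figure D5:**
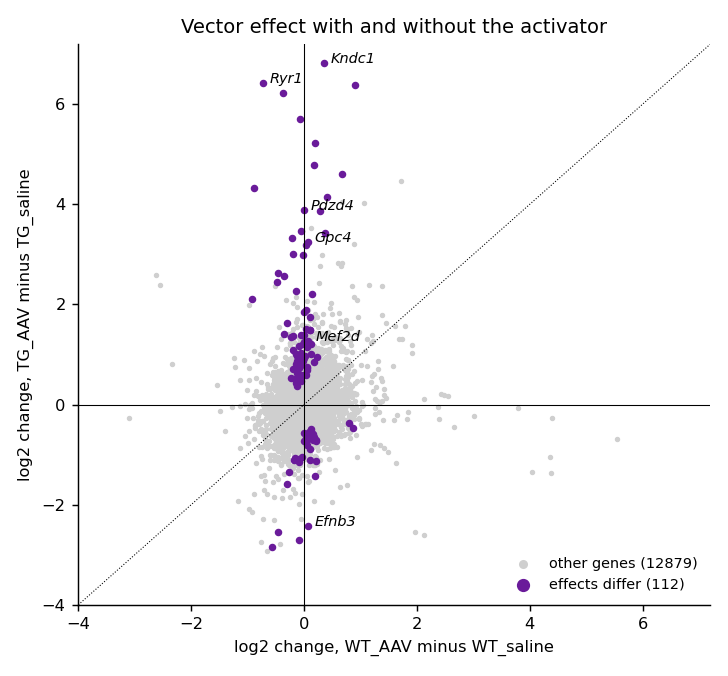
Log2 change made by the vector in transgenic hearts (y axis) against that in wild-type hearts (x axis), with 1 point for each of the 12991 genes, with the 112 genes whose effects differed, 81 higher and 31 lower with the activator, in colour. The dotted line marks equal effects, and the coloured genes spread along the y axis while all of them stay within 1 log2 unit of 0 on the x axis.

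Genes that rose, but not those that fell, also differed from all tested genes in transcript length, taken as the longest transcript per gene in GENCODE M21. The median was 3972 bases for genes that rose, 3464 for those that fell and 3493 for all tested genes, with a length for 96.2% of them. With genes in 4 equal classes of length, 5.12% of the shortest class rose and 6.01% fell, against 10.2% and 5.73% of the longest. The part of length in the calls was not tested.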

How the data were processed

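The authors deposited a signal unit, normalized counts for each gene symbol, made as read counts of a gene over the size factor of its library. The submitters' processing notes name Bowtie2 2.0, DESeq2 and the build mm9, and what each tool did, as well as annotation, counting, strand and filters, was not given in the sources used here. Without a strand setting, reads of overlapping or antisense genes cannot be told apart. Each column's positive values were whole multiples of 1 step, so whole reads were recovered, with 100% of values within 0.01 of a whole number.

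Sample titles gave the groups and replicate numbers. Nothing in the labels says that samples are separate animals, so p-values measure the spread between samples, which may be technical in part. Tests ran on log2(normalized count + 1), a scale that understates the change of low genes, with limma 3.58.1 (R 4.3.3) and a variance trend, two-sided, for genes with a mean of 10 or more over the 6 libraries. Benjamini-Hochberg adjustment ran over all 12991 genes at a threshold of 0.05. The difference between transgenic and wild-type effects was an interaction in a fit of all 12 libraries. The procedure was tested on a set of simulated counts, where 9.71% of calls were false, more than the threshold of 0.05 allows for. Of the genes changed 2-fold in that set, 90% of those raised and 91.7% of those lowered were recovered.

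Samples were not treated as paired by replicate number, which so few libraries cannot settle. Named genes are Mef2d and the largest changes without overlap, namely 8 that rose from a TG_saline mean under 10, 8 that rose and 10 that fell from 50 or more, 4 in each direction from 1000 or more, and 4 in each direction of smallest p for the interaction. List members are named in order of p. A few genes picked by these rules are not reported here. Members and lists were chosen with earlier results of these data known. A spreadsheet had turned 27 symbols into dates, of which 21 were tested and none is named. As alternatives the pseudocount, the filter, the scaling and the variance estimate were varied, with a replicate block, the 12-library fit, omission of each library, and edgeR 4.0.16 and DESeq2 1.42.0 on recovered reads. A term for high Xist and 2 fits of 2 against 2 libraries were added after seeing the data.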

Additional observations from a re-analysis of the deposited data

Results flagged for a closer look

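The effect of the vector differed between hearts with and without the activator, by limma's interaction term with an adjusted p under 0.05, for the genes below. Values are log2 differences, positive where the effect was higher with the activator.

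Mef2d itself stood at 1.20. The genes near silent in TG_saline entered the test through TG_AAV alone, so their values are a description. They stood at 6.46 for Kndc1, 5.49 for Atp1b4, 6.58 for B3gat1, 5.78 for Clstn3, 5.03 for Col22a1, 4.60 for Plekhg6, 3.93 for Syndig1 and 5.22 for Ccno. Of the other genes that rose, Gpc4 stood at 3.18, Tmem56 at 2.92, Pdzd4 at 3.89, Lrrcc1 at 1.85 and Lix1l at 1.30.

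Of the genes that fell, Abca4 stood at -2.29, Cenpf at -2.07, Efnb3 at -2.50, Pde1c at -1.28, Kcnip2 at -1.06, Mov10l1 at -1.09 and Crip2 at -0.73.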

How the results depend on the processing

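Neither the change of Mef2d nor that of any gene of the naming rule turned its direction. The balance of members that rose and fell turned for 3 lists, namely sarcomere and Z-disc genes (4 and 2 with quantile normalization), cardiac transcription factors (4 and 3 with scaling to total reads) and metabolic regulators (3 and 1 without TG_saline 2). The even split of MEF2 targets also moved, to 6 that rose and 3 that fell with either of these scalings. The fit of all 12 libraries gave 491 genes that rose and 314 that fell, and 803 of these 805 were also called in the fit of 6. With 2 libraries in each group, 495 rose and 312 fell without the highest-Myl7 libraries, and 605 and 342 without the high-Xist libraries. Leaving out each library in turn gave 587 to 966 risers and 428 to 571 fallers. The interaction called 112 genes, 273 by DESeq2, 260 without WT_saline 3, WT_AAV 2 and WT_AAV 3, a fit with WT_AAV 1 as the only wild-type vector library, and 40 to 190 leaving out each library. The causes were not tested, though fewer samples also mean less power. On the recovered reads edgeR gave 989 risers and 779 fallers, and DESeq2 955 and 670. Other scalings, pseudocounts and filters also kept these counts within 1.5 times. The Mef2d change stayed between 1.21 and 1.33 on the log2 scale.

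As for pairing, libraries with the same replicate number had correlations of -0.12, 0.26 and -0.16 in their deviations from the group means, and not every library correlated best with its own number. The replicate block gave 947 risers, 666 fallers and 154 genes for the interaction. Mef2d stood at 1.28 with the block.

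Of the 34 genes that the naming rule picks for the comparison itself, 6 lost their call with a robust variance, 3 in the 12-library fit, 1 or 2 without a given library and 3 or 2 in the 2 fits of 2 against 2. Arms of 2 libraries and the depth of the libraries limit what small changes of low genes can show.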
